A study of Mus musculus with 34 samples.

Results

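The genes described here are named for the mitochondrial respiratory chain and ATP synthase, and most of them encode subunits of these complexes. They were chosen by name from the mRNA-seq table of mouse limb buds, as rows whose symbol begins with Nduf, Uqcr, Cox4 to Cox8, Atp5 or mt-, or is Sdha, Sdhb, Sdhc or Sdhd, and whose mean level over the 6 libraries was at least 0.5 FPKM. FPKM is the number of reads on a gene per kilobase of exon, scaled to the size of the library. The exon length appears to be that of all annotated exons of a gene together, which can exceed that of a transcript. Levels of different genes can therefore be compared only roughly. The name rule matched 105 of the 22040 listed genes and 100 of these passed the level, 87 encoded in the nucleus and all 13 encoded in mitochondrial DNA. The 5 that did not pass were Cox6a2, Cox7b2, Cox8b, Cox8c and Ndufa4l2. Among the 87 nuclear genes are 8 assembly factors of complex I (Ndufaf genes), the supercomplex factor Cox7a2l and Atp5s, coupling factor B or a related protein. The rule used only names and mean levels, though it was set with earlier results of these data known.

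Complexes I to IV pass electrons from NADH and succinate to oxygen, and complexes I, III and IV pump protons across the inner mitochondrial membrane. ATP synthase, complex V, uses the proton gradient to make ATP. Mitochondrial DNA encodes the proton-pumping membrane core of complex I, cytochrome b of complex III, the catalytic core of complex IV and part of the membrane sector of complex V, and these genes are transcribed as long joint precursors inside the organelle. All other subunits are encoded in the nucleus and imported, so each complex other than II joins products of both genomes. The promoters of many nuclear subunit genes are known to carry sites for NRF1, for the ETS factor GABPA and for YY1.

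The comparison was between limb buds of E11.5 embryos that lacked Hnrnpk in limb mesenchyme, named CKO (Prrx1-Cre;Hnrnpk fl/fl), and wild type limb buds, named WT, with 3 libraries of each genotype. Hnrnpk encodes an RNA- and DNA-binding protein, and Prrx1-Cre recombines in the early limb mesenchyme, incompletely in the hindlimb, and cells of other origin, such as blood and ectoderm, are outside its known reach. Embryo sex was not identified in the study. The other 28 samples of the series, from chromatin assays, were not used.

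Library sizes recovered from the steps of the FPKM values lay between 18026062 and 23935514 reads. These sizes appear to have been scaled between libraries, since reads on listed genes came to 1.11 of the size in CKO2 and 1.03 in CKO3. Hnrnpk was listed at 193, 195 and 185 FPKM in WT and at 127, 142 and 135 FPKM in CKO, without overlap, a log2 difference of -0.50 ± 0.13 (SE) with an adjusted p of 0.334 in limma (0.057 with the replicate number as a block). Reads from cells outside the reach of the Cre are part of these values, and fewer cells of a type cannot be told apart from less RNA per cell in these samples. The conditional allele loses only part of the Hnrnpk exons, so reads from the exons that remain can also be counted. The paper reports an efficient loss of Hnrnpk by western blot and qPCR. The FPKM values of Hnrnpk are therefore no measure of the degree of loss. All 8 limb mesenchyme markers (among them Prrx1, Twist1 and Msx1) were above 0.5 FPKM, with a summed level of 371 to 425 FPKM in 5 libraries and 333 FPKM in CKO2. Of these 8 markers, 2 were higher in CKO, and 1 of the 8 passed the limma test with the block. The 12 erythroid markers, all higher in CKO by log2 difference, summed to 38014 to 64256 FPKM in WT and to 31033, 143394 and 85844 FPKM in CKO1, CKO2 and CKO3. The 4 endothelial markers, of which 0 were higher in CKO, summed to 15.5 to 24.3 FPKM in WT and 12.1 to 17.9 FPKM in CKO. The replicate 1 libraries of both genotypes stood apart from the other 4 on the first principal component, which held 52.6% of the variance, so results are given with and without them.

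Some mitochondrially encoded members also occur in nuclear chromosomes almost letter for letter, which bears on how their reads can be placed. The mitochondrial genome has a nuclear copy on chromosome 1 (mm10, chr1:24611535-24616188, minus strand) that spans mitochondrial positions 6390 to 11042 with 99.936% identity over 4654 aligned bases. It differs from the organelle by only 2 substitutions, A6393T in mt-Co1 and T9461C in mt-Nd3 (mitochondrial base, position, nuclear base), and by 1 inserted base. The first 60 bases of mt-Nd4l (complex I) are the same in both places, whereas those of mt-Cytb (complex III) differ from their copy on chromosome 4 at 3 bases, shown in capitals.
mt-Nd4l, chrM:9877-9936, plus strand: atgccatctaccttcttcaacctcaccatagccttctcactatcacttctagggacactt
mt-Nd4l, nuclear copy, chr1:24612641-24612700, minus strand: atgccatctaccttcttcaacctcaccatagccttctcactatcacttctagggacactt
mt-Cytb, chrM:14145-14204, plus strand: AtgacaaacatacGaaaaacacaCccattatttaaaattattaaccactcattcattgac
mt-Cytb, nuclear copy, chr4:80003989-80004048, plus strand: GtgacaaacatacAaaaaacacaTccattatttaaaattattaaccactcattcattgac

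Reads of nuclear members can be uncertain too. Of the 87 genes, 30 share exon bases with another gene, 3 of them on the same strand, and 11 have more than 5% of their 100-base windows unaltered elsewhere in the genome, led by Cox7a2l at 28.3%, Atp5g2 at 23.5% and Ndufs5 at 23.1%, while 67 have none. The promoters of the nuclear members were read from RefSeq (GRCm38.p6) in windows from 250 bases before to 50 bases after the transcript start, and 74 of the 87 genes had one or more of 79 windows. The NRF1 core (CGCATGCG or CGCACGCG, both strands) was found in 19 of these windows, or 24.1%, against 8.64% of the windows of tested genes and 4.19% of all windows in the table. The ETS core CCGGAAG was found in 22.8%, 17.2% and 8.86% and the YY1 core AAGATGGC in 13.9%, 4.33% and 2.75% of the same 3 sets, each motif being counted on its own. These matches are letters in a window and not measured binding. The stretches below hold the NRF1 core of Ndufaf5, the nuclear member with the largest difference between the genotypes, and the NRF1 and ETS cores of Sdhd, Uqcr11 and Atp5k, one gene each of complexes II, III and V. Capitals mark the motif letters, also where they lie on the other strand.
Ndufaf5, chr2:140170648-140170685, plus strand: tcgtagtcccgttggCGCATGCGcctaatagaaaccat
Sdhd, chr9:50603874-50603942, minus strand: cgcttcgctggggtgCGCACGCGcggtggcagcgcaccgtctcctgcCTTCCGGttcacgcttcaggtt
Uqcr11, chr10:80406804-80406902, minus strand: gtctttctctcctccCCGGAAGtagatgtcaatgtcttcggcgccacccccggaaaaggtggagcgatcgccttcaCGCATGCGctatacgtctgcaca
Atp5k, chr5:108434366-108434463, minus strand: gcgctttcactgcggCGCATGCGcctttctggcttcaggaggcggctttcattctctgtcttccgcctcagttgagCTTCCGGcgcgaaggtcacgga

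No respiratory chain gene passed the test between CKO and WT. With limma on log2(FPKM + 0.1), 0 of the 100 members had an adjusted p under 0.05, beside 8 of 12305 tested genes (0.065%), and 2 members (Ndufaf5 and mt-Nd4l) had an unadjusted p under 0.05. The count was also 0 by voom on the recovered reads, where no member had an unadjusted p under 0.05. The differences nevertheless lay mostly on one side, with 89 of 100 members higher in CKO and a median log2 difference of 0.14 for the 87 nuclear and 0.27 for the 13 mitochondrially encoded genes, beside 0.0048 for all tested genes, of which 6264 were higher. The count rested on single libraries, since 69 of 79 nuclear subunit genes were higher with all libraries but 36 without CKO2 and 41 without WT1, and of the 13 mitochondrially encoded genes 7 and 8 were. The median of 0.27 joins genes with and without a close nuclear copy. It was 0.20 for the 7 genes with at most 61% of their 100-base windows unaltered in a nuclear chromosome. For the 6 with over 90%, whose reads cannot be placed with certainty, it was 0.46. Scaling each library to its nuclear genes other than globin genes moved the median of all genes to -0.09. The nuclear subunit genes and the mitochondrially encoded genes had medians 0.13 and 0.27 above that of all genes, with and without the scaling. Such scaling divides all genes of a library by the same factor and so shifts their log2 differences about alike. These distances could therefore hardly change, and they are no test of whether the differences outlast the scaling. With the scaling, 51 of 79 nuclear subunit genes and 10 of 13 mitochondrially encoded genes were still higher in CKO. The WT and CKO values of every one of the 100 members overlapped, whereas 5.63% of tested genes were higher and 8.86% lower in all CKO than in all WT libraries.

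For the summed level of the nuclear members, the difference between the genotypes was smaller than the spread between libraries of 1 genotype. The 87 nuclear members summed to 3633, 5112 and 4303 FPKM in WT1, WT2 and WT3 (4349 ± 740, SD, n = 3) and to 3457, 6024 and 5410 FPKM in CKO1, CKO2 and CKO3 (4964 ± 1340, SD, n = 3). Both replicate 1 libraries were the lowest of their genotype and CKO2 the highest of all. As a share of the nuclear genes other than globin genes the same sums were 1.66%, 2.14% and 1.92% in WT and 1.61%, 2.29% and 2.15% in CKO. As a share of the summed FPKM of all genes they were 1.33%, 1.58% and 1.39% in WT and 1.32%, 1.37% and 1.496% in CKO. The mean of the first share was higher in CKO (2.01% against 1.91%) and that of the second lower (1.397% against 1.43%), so the direction depended on the denominator. The globin genes, which mark red blood cells, took 13.7%, 19.5% and 20.6% of the summed FPKM in WT and 11.7%, 32.4% and 23.5% in CKO. CKO1 was thus the lowest and CKO2 the highest library both for the globin share and for the summed FPKM of the nuclear members. The part of the blood content in the difference was not tested.

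**Figure D1:**
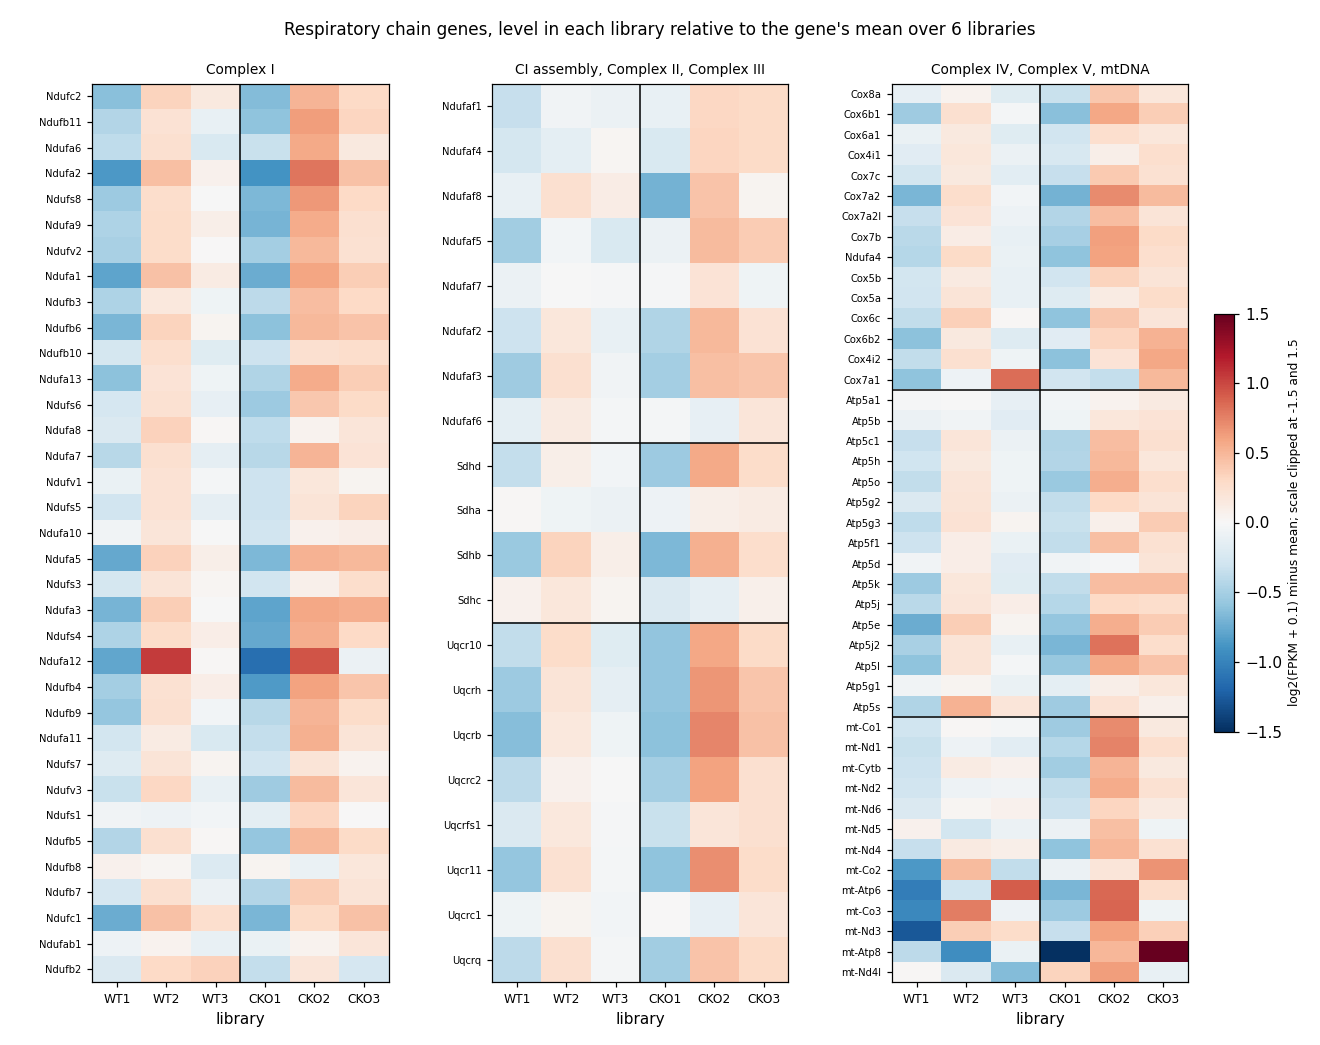
Each row is 1 of 99 genes and each column 1 of the 6 libraries, coloured by log2(FPKM + 0.1) minus the gene's mean over the libraries, with red above and blue below the mean and a line between WT and CKO. The WT1 and CKO1 columns are mostly blue and the CKO2 column mostly red, and the other 3 columns are paler.

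Among nuclear members, 86 of 87 were lower in the replicate 1 libraries than in the mean of the other 4, with a median log2 difference of -0.61, beside -0.02 for all tested genes, of which 6363 were lower. Ndufa12 (complex I) had the largest such difference at -1.44, and Ndufb8 (complex I) was the exception at 0.07. The cytosolic ribosomal protein genes, read in the same way, had a median of -0.65 over 77 genes and the mitochondrial ribosomal protein genes -0.28 over 77. Across genes, the difference of the replicate 1 libraries went with transcript length, with a Spearman correlation of 0.47 over the 87 nuclear members and 0.48 over 12267 tested genes, which share the same 6 libraries and are not independent. The shorter 43 nuclear members, with a longest coding transcript under 918 bases, had a median of -0.67 and the other 44 a median of -0.46. Of the other cell types, the 8 muscle markers summed to 13.2 and 33.4 FPKM in WT1 and CKO1 and to 47.8 to 72.2 FPKM in the other libraries, with Pax7 and Ckm below 0.5 FPKM. The muscle sum was also the higher one in CKO in each numbered pair, at 33.4 against 13.2, 72.2 against 52.7 and 59.8 against 47.8 FPKM, with all 6 tested markers higher in CKO and 1, Actc1, called with the block. The 4 ectoderm markers summed to 19.2 and 25.6 FPKM in WT1 and CKO1 against 41.4 to 48.4 FPKM in the others. The part of the makeup of the tissue in these differences was not tested.

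Libraries of the same number were therefore set against each other. Their deviations from the genotype means correlated at 0.64 for number 1, 0.44 for number 2 and 0.27 for number 3, but WT2 correlated with CKO3 at 0.49 and WT3 with CKO2 at 0.31, so number 1 stood apart from the rest while numbers 2 and 3 were not matched better within than between them. In pair 1 the nuclear members were on the whole not higher in CKO, with 25 of 87 higher and a median log2 difference of -0.07. In pair 2, 66 of 87 were higher with a median of 0.21, and in pair 3, 81 of 87 with a median of 0.32, while the medians of all tested genes in the 3 pairs were -0.01, 0.0014 and 0.0014. All 3 pairs were higher in CKO for 17 of 87 nuclear members, beside 18.2% of tested genes, and lower for 3, beside 21.3%. The 3 were Ndufa12 and Ndufb2 of complex I and Atp5s of complex V. With the replicate number as a block, 2 members passed the test, Ndufaf5 and mt-Nd4l, both higher in CKO, beside 1.13% of tested genes that passed in that direction. With replicates 2 and 3 only, 15 members passed and all were higher in CKO, beside 7.05% of tested genes. These 15 were Ndufa11, Ndufa13, Ndufaf1, Ndufaf4, Ndufaf5, Uqcrb, Uqcrh, Cox6b2, Cox7a2, Cox7b, Atp5j2, Atp5k, Atp5l, mt-Atp8 and mt-Nd4l. The SEs of this fit rest more on the variance shared by tested genes of like level than on the spread of each gene. The median of the nuclear subunit genes was 0.26 in these 4 libraries. Over all libraries it was 0.14, and leaving out a single library gave 0.42 without CKO1, 0.28 without WT2, 0.02 without WT1, 0.03 without CKO3 and -0.02 without CKO2, so each of these 5 libraries moved it by more than 1.5 times and CKO2 turned its sign.

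**Figure D2:**
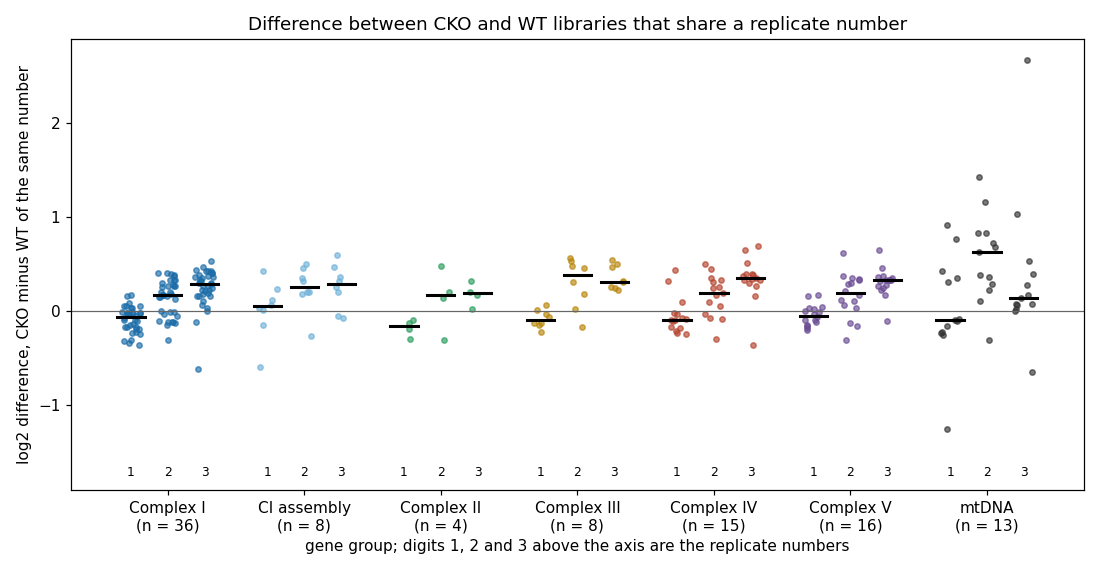
Each point is 1 gene, placed by the log2 difference between the CKO and the WT library of the same replicate number, by gene group and, within a group, by number 1, 2 and 3. Black bars are medians, which lie near or below 0 in pair 1 and above 0 in pairs 2 and 3 in every group.

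Complex I, the NADH dehydrogenase that takes electrons into the chain, contributed 36 nuclear subunit genes with mean levels of 1.39 to 83.4 FPKM. Of these, 30 were higher in CKO and 6 lower, with a median log2 difference of 0.12, and none passed the test with or without the block. The 7 nuclear core subunits carry the flavin and iron-sulfur clusters and the quinone site. On the median they varied less between libraries than the 29 supernumerary subunits around them. The median ratio of the highest to the lowest library was 1.45 for the core and 2.12 for the supernumerary genes, beside 1.51 for all tested genes. The 2 sets overlapped, with the core gene Ndufs8 at 2.51 and the supernumerary gene Ndufab1 at 1.23.

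Ndufv1, the flavin subunit that oxidises NADH, was at 32.5, 40.5 and 34.1 FPKM in WT and 27.9, 39.1 and 35.7 FPKM in CKO, a log2 difference of -0.07 ± 0.16. The genotypes overlapped, and the adjusted p was 0.94. Ndufs7 was at -0.03, Ndufs3 at 0.03, Ndufs1 at 0.12, Ndufv2 at 0.14 and Ndufs8 at 0.19, and each of these genes and Ndufv1 turned sign without one or another single library.

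Among the supernumerary subunits Ndufa13, known also as GRIM-19, had the highest difference. It was at 24.0, 42.5 and 35.1 FPKM in WT and 26.8, 54.0 and 47.5 FPKM in CKO, a log2 difference of 0.31 ± 0.30, and the CKO library was the higher one in all 3 pairs. Ndufb2 had the lowest difference of all members, at 1.15, 1.69 and 1.76 FPKM in WT and 1.04, 1.56 and 1.12 FPKM in CKO (-0.28 ± 0.23, adjusted p = 0.818). Ndufa12, in the peripheral arm, showed how far a library could move a member. It was at 11.4, 40.8 and 19.9 FPKM in WT and 8.90, 37.9 and 18.5 FPKM in CKO, a 4.58-fold range over the 6 libraries, while the log2 difference was -0.36, -0.10 and -0.11 within the 3 pairs.

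The 8 Ndufaf genes encode factors that assemble complex I and are not part of the finished enzyme. They had a median log2 difference of 0.20, and 7 of 8 were higher in CKO, with 4 of 8 higher in all 3 pairs. Ndufaf5, which hydroxylates an arginine of the core subunit NDUFS7, lies on chromosome 2 (chr2:140170649-140203689, plus strand). It was listed at 6.11, 8.57 and 7.51 FPKM in WT and at 8.28, 12.3 and 11.5 FPKM in CKO, from 197 to 489 reads per library. CKO2 and CKO3 were above every WT library, whereas CKO1 lay below WT2. The log2 difference was 0.52 ± 0.19 (SE, adjusted p = 0.55 in limma, exact permutation p = 0.2 where 0.1 is the smallest that 3 against 3 can give). It was 0.43, 0.51 and 0.60 within the 3 pairs, and with the replicate block the SE was 0.11 and the adjusted p 0.025. Ndufaf1, which acts on the membrane arm, came next at 0.33 ± 0.15 with an adjusted p of 0.111 with the block. Ndufaf8, a partner of NDUFAF5, was the 1 factor lower in CKO, at 8.45, 10.8 and 9.84 FPKM in WT and 5.56, 12.3 and 9.35 FPKM in CKO (-0.16 ± 0.27).

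Complex II, succinate dehydrogenase, is also an enzyme of the tricarboxylic acid cycle and has 4 subunits, all nuclear. Sdha, the flavoprotein, was among the steadiest members, at 48.5, 45.9 and 44.9 FPKM in WT and 45.5, 50.7 and 51.9 FPKM in CKO (0.09 ± 0.11). Sdhb, the iron-sulfur subunit, had the same log2 difference of 0.09 with a larger SE of 0.34, since WT1 and CKO1 were at 26.7 and 24.6 FPKM and the other libraries between 41.7 and 56.8 FPKM. The membrane anchors differed in sign. Sdhc was at 26.95, 28.8 and 26.5 FPKM in WT and 22.0, 23.4 and 27.1 FPKM in CKO (-0.18 ± 0.12), and Sdhd was at 72.1, 97.8 and 89.8 FPKM in WT and 63.4, 137 and 112 FPKM in CKO (0.20 ± 0.28). Scaled to nuclear genes other than globin genes, Sdha and Sdhb turned to -0.0075 and -0.005. None of the 4 genes passed the test in all 6 libraries, with the block or in replicates 2 and 3.

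Complex III, the cytochrome bc1 complex, passes electrons from ubiquinol to cytochrome c. All 8 nuclear members had a positive log2 difference, with a median of 0.21. The core proteins Uqcrc1 and Uqcrc2 had log2 differences of 0.04 and 0.22 and the Rieske protein Uqcrfs1 of 0.06, and Uqcrc1 and Uqcrfs1 turned to -0.05 and -0.04 when libraries were scaled to nuclear genes other than globin genes. Uqcrb, a small subunit near the quinone site, had the highest at 0.37 ± 0.36, from 57.6, 100.3 and 85.7 FPKM in WT and 58.5, 149 and 122 FPKM in CKO. WT1 and CKO1 were alike for this gene, and CKO2 and CKO3 were above all other libraries. In replicates 2 and 3 its log2 difference was 0.54 ± 0.15 (adjusted p = 0.011).

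Complex IV, cytochrome c oxidase, reduces oxygen to water, and its nuclear subunits include several with isoforms that are known to differ between tissues. The rule took 15 nuclear genes, counting Ndufa4, now assigned to this complex, and Cox7a2l, a supercomplex factor related to Cox7a. Of these, 13 had a positive and 2 a negative log2 difference, with a median of 0.16 (Cox4i1, at 0.06, turned to -0.04 when scaled to nuclear genes other than globin genes), and none passed the test with or without the block. The isoforms known for broad expression were the main ones in both genotypes. Cox4i1 had a mean of 125 FPKM and Cox4i2, the isoform linked to low oxygen, 3.61 FPKM. Cox6a1 had 157 FPKM and the heart and muscle isoform Cox6a2 0.0128 FPKM, with 5 of its 6 libraries listed at 0. Cox7a2 had 84.4 FPKM and the muscle isoform Cox7a1 1.24 FPKM, and Cox8a had 194 FPKM, Cox8b 0.0953 FPKM and Cox8c 0 FPKM. Ndufa4 had 70.2 FPKM and its hypoxia-linked paralogue Ndufa4l2 0.219 FPKM.

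Cox6b2, described as a testis isoform, was the minor isoform of the complex with the highest level, at a mean of 11.8 FPKM beside 192 FPKM for Cox6b1. It also had the highest log2 difference of the nuclear members of the complex, at 7.41, 12.6 and 10.01 FPKM in WT and 10.1, 14.3 and 16.4 FPKM in CKO (0.44 ± 0.24, adjusted p = 0.695). CKO was higher in all 3 pairs, by 0.44, 0.18 and 0.70, and the adjusted p was 0.065 with the block. Cox6b1 was at 126, 217 and 180 FPKM in WT and 118, 274 and 236 FPKM in CKO (0.21 ± 0.34). Cox7a1 was the lowest at -0.11 ± 0.39, a value that rests on 7 to 25 reads per library.

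**Figure D3:**
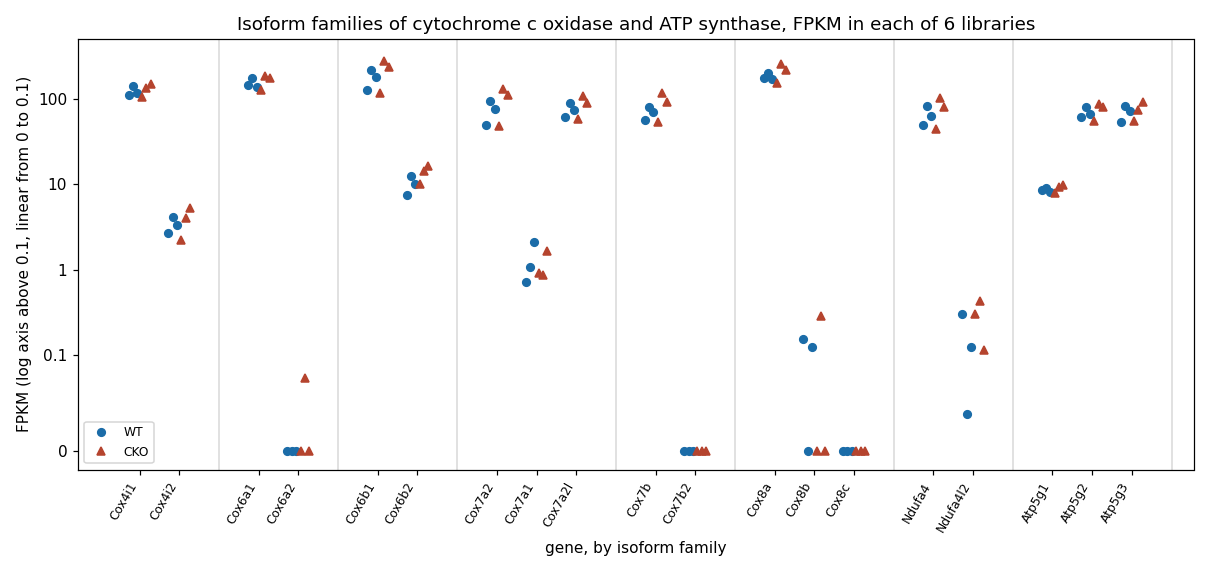
FPKM of 19 genes in 8 isoform families, with WT libraries as circles and CKO libraries as triangles, on an axis that is logarithmic above 0.1 FPKM and linear from 0 to 0.1 FPKM. Apart from Cox7a2l, the minor isoforms in the 7 families of complex IV lie below the main one in every library. Cox7a2l lies above Cox7a2 in WT1 and CKO1 (60.8 and 57.3 against 48.95 and 48.1 FPKM) and below it in the others. Atp5g1 lies below Atp5g2 and Atp5g3, with a joint exon length of 4912 bases beside 1675 and 2181 bases.

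Complex V was represented by 16 nuclear genes, 15 with a positive and 1 with a negative log2 difference and a median of 0.15. The 5 genes of the F1 head and central stalk were all positive, from 0.08 for Atp5d to 0.23 for Atp5e, though Atp5d turned to -0.01 when scaled to nuclear genes other than globin genes. Atp5a1 and Atp5b, the alpha and beta subunits that form the catalytic ring, were the most abundant nuclear members, with means of 297 and 269 FPKM. Atp5b was at 251, 259 and 237 FPKM in WT and 256, 302 and 308 FPKM in CKO (0.21 ± 0.15, adjusted p = 0.782). CKO2 and CKO3 were above the WT libraries and CKO1 lay between WT1 and WT2. Atp5a1 ranged only from 273 to 325 FPKM. The c-ring is encoded by 3 genes with the same mature protein, and all had a small difference, of 0.07 for Atp5g1 and 0.08 for Atp5g2 and Atp5g3, which turned negative under the scaling to nuclear genes other than globin genes.

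The 3 small membrane subunits had the highest log2 differences of its nuclear members. Atp5k, subunit e, was at 36.8, 60.7 and 47.3 FPKM in WT and 41.5, 74.3 and 74.3 FPKM in CKO (0.37 ± 0.27), with 0.17, 0.29 and 0.65 within pairs and an adjusted p of 0.124 with the block. Atp5l and Atp5j2, subunits g and f, had log2 differences of 0.29 and 0.26. All 3 passed the test in replicates 2 and 3. Atp5s, coupling factor B, was the lowest at -0.16 ± 0.29, with 2.39, 4.79 and 3.76 FPKM in WT and 2.25, 3.87 and 3.496 FPKM in CKO.

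**Figure D4:**
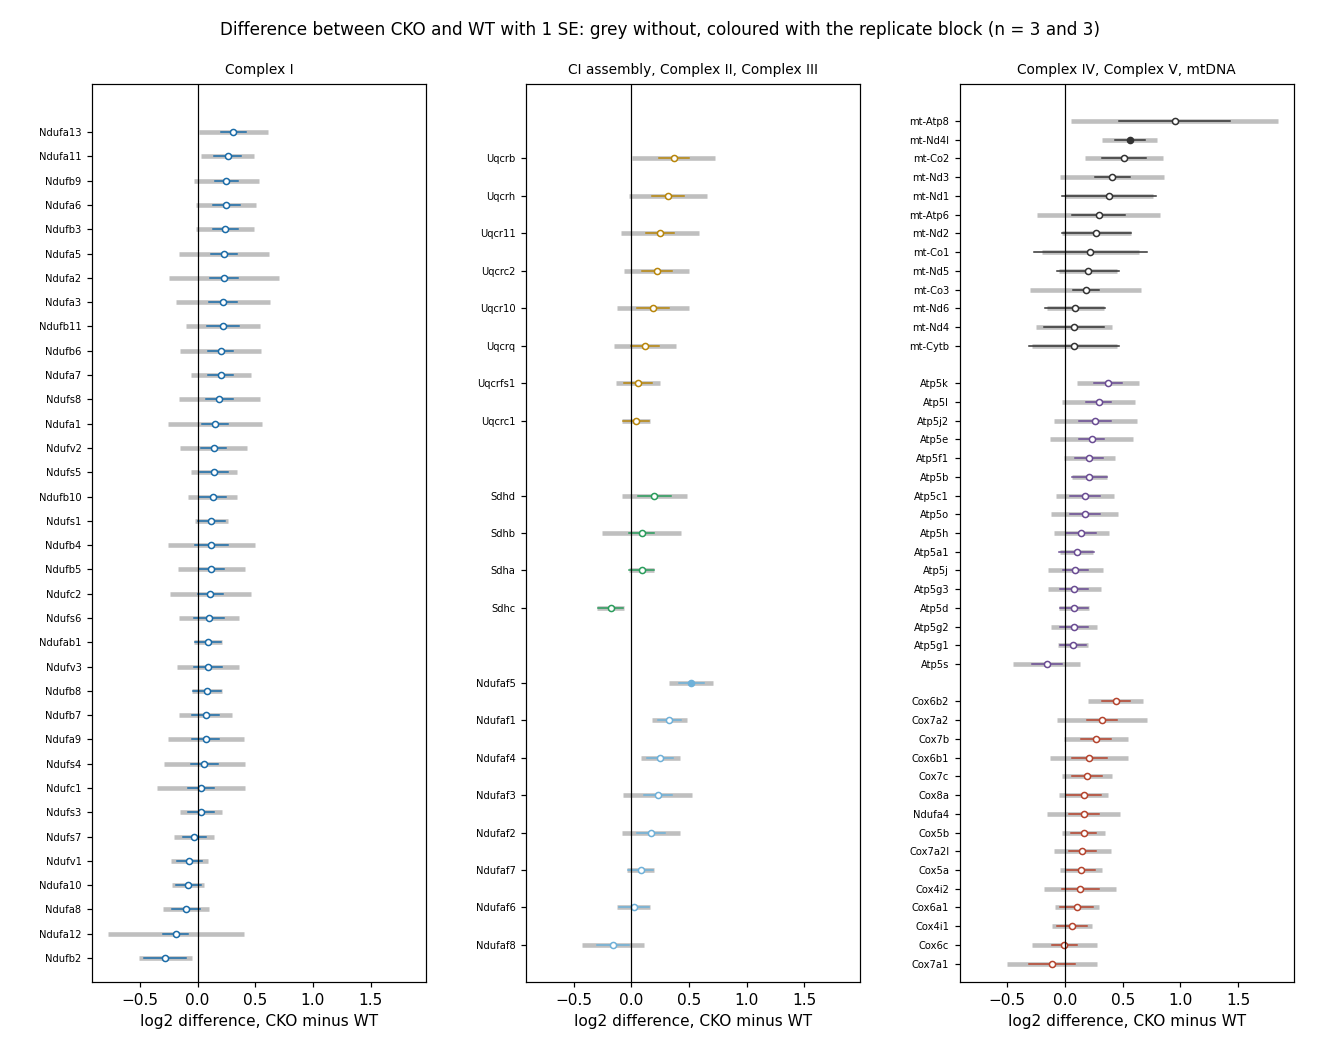
Log2 difference between CKO and WT for each of 99 genes by complex, with 1 SE without the replicate block in grey and with it in colour, and filled points for an adjusted p under 0.05 with the block. The 2 filled points are Ndufaf5 and mt-Nd4l, and the grey bars of most nuclear genes are wider than the coloured ones.

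The 13 mitochondrially encoded genes split into 2 sets by level. A set of 7 (mt-Co1, mt-Nd1, mt-Cytb, mt-Nd2, mt-Nd6, mt-Nd5 and mt-Nd4) had means of 1382 to 7135 FPKM, and the other 6 (mt-Co2, mt-Atp6, mt-Co3, mt-Nd3, mt-Atp8 and mt-Nd4l) had means of 4.60 to 56.5 FPKM. The split followed the nuclear copy shown above. Of all 100-base windows of mt-Co2, mt-Co3, mt-Atp6, mt-Atp8 and mt-Nd4l, 100% stood unaltered in a nuclear chromosome, and of mt-Nd3 98.8%. In the higher set the share was 60.8% for mt-Nd4, 30.8% for mt-Co1, 3.19% for mt-Nd2 and 0% for mt-Nd1, mt-Nd5, mt-Nd6 and mt-Cytb. How reads that match several places were counted is not given in the sources used here, so the levels of the lower set are those of the reads that were counted and not of the transcripts. The part of this copy in the low values was not tested. mt-Atp8 and mt-Atp6 also share 43 bases, and mt-Nd4l and mt-Nd4 share 7.

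**Figure D5:**
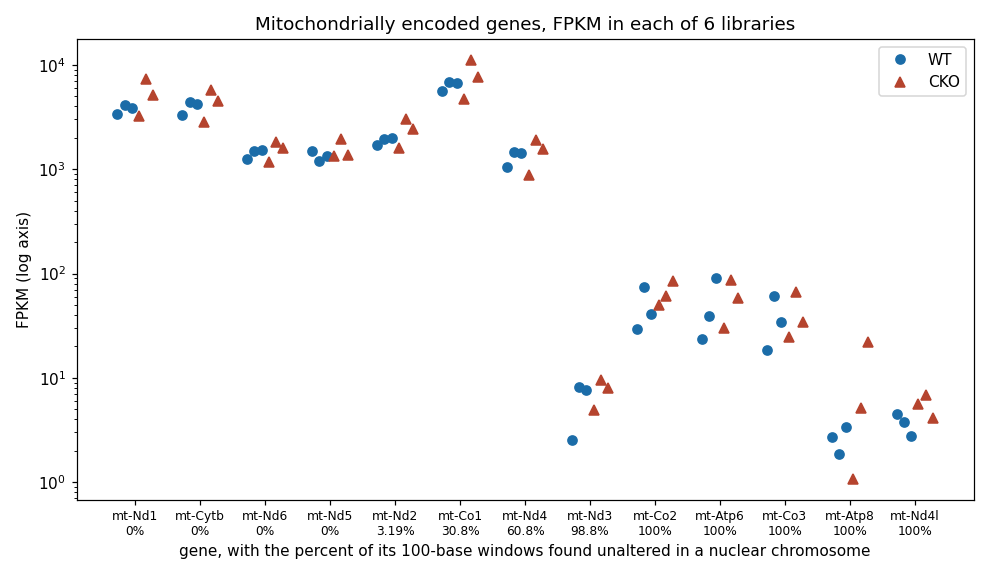
FPKM of the 13 mitochondrially encoded genes on a logarithmic axis, with WT libraries as circles and CKO libraries as triangles, ordered by the percent of 100-base windows with an unaltered nuclear match, given under each name. All genes at 60.8% or less lie at 884 FPKM or above and all at 98.8% or more at 90.5 FPKM or below in every library.

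Together the 13 genes took 6.51%, 6.71% and 6.89% of the summed FPKM in WT (6.70 ± 0.19, SD, n = 3) and 6.08%, 7.55% and 6.76% in CKO (6.80 ± 0.736, SD, n = 3). CKO1 was the lowest and CKO2 the highest library, and the genotypes overlapped. The ratio of the mitochondrially encoded to the nuclear sum was 4.91, 4.25 and 4.95 in WT and 4.60, 5.51 and 4.52 in CKO, again with overlap.

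mt-Co1, the catalytic subunit of cytochrome c oxidase, was the most abundant member, at 5569, 6933 and 6726 FPKM in WT and 4750, 11200 and 7634 FPKM in CKO, a log2 difference of 0.22 ± 0.42 (adjusted p = 0.925). CKO2 alone stood far above WT, and CKO1 stood below it. mt-Nd1, a quinone-side subunit of complex I, showed the same order at 3419, 4090 and 3876 FPKM in WT and 3225, 7259 and 5126 FPKM in CKO (0.38 ± 0.38). The other 5 of the higher set had log2 differences of 0.27 for mt-Nd2, 0.20 for mt-Nd5, 0.09 for mt-Nd6 and 0.08 for both mt-Nd4 and mt-Cytb, the last 3 of which turned to -0.0061, -0.01 and -0.0094 under the scaling to nuclear genes other than globin genes. All 7 were lower in CKO in pair 1 and higher in pairs 2 and 3. Without CKO2 the median of all 13 genes fell from 0.27 to 0.02, without WT1 it was 0.12 and without CKO1 it was 0.54.

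In the lower set, mt-Nd4l, a small membrane subunit of complex I, passed the test with the block. It was at 4.48, 3.80 and 2.78 FPKM in WT and 5.58, 6.86 and 4.09 FPKM in CKO, from 24, 27 and 18 reads in WT and 30, 39 and 29 in CKO. CKO1 and CKO2 were above all WT libraries and CKO3 lay below WT1. The log2 difference was 0.56 ± 0.24 (SE, adjusted p = 0.576 in limma and 0.041 with the block, exact permutation p = 0.2), and it was 0.31, 0.84 and 0.54 within the pairs. mt-Nd4, its neighbour with a mean of 1382 FPKM, had 0.08 ± 0.33. mt-Atp8, of the ATP synthase membrane part, had the largest log2 difference of all members at 0.95 ± 0.90, which rested on CKO3. Its levels were 2.72, 1.84 and 3.37 FPKM in WT and 1.08, 5.12 and 22.0 FPKM in CKO, from 107 reads in CKO3 and 4 to 20 in the other libraries, and without CKO3 the log2 difference was -0.10. The remaining genes of this set were mt-Co2 at 0.51 ± 0.34, mt-Nd3 at 0.41 ± 0.45, mt-Atp6 at 0.29 ± 0.53 and mt-Co3 at 0.18 ± 0.48.

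Members with and without a promoter motif were then set side by side. The 18 with the core had a median log2 difference of 0.19 and the 56 without it 0.14, and for the ETS core the medians were 0.19 for 18 genes and 0.14 for 56. For YY1 they were 0.08 for 11 genes and 0.16 for 63. These are descriptions without a test. Neither of the genes for NRF1 and GABPA passed the test. Nrf1 was at 7.40, 7.08 and 6.96 FPKM in WT and 7.45, 6.43 and 7.37 FPKM in CKO (-0.01 ± 0.12), and Gabpa was at 21.9, 18.2 and 19.5 FPKM in WT and 21.5, 19.9 and 19.1 FPKM in CKO (0.03 ± 0.12).

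Of 111 tested genes in 10 lists of the pathway around the chain, none passed the test with or without the block, and 8 had an unadjusted p under 0.05. The median log2 difference over all of them was 0.06, with 76 higher and 35 lower in CKO. Electron carriers and subunits outside the name rule had 5 of 6 higher. Cycs, cytochrome c, was the highest of them at 23.6, 32.6 and 30.0 FPKM in WT and 22.2, 50.8 and 40.0 FPKM in CKO (0.32 ± 0.29), and Etfb, of the electron transfer flavoprotein, the lowest at -0.14 ± 0.50. Among assembly factors of complex I outside the name rule 6 of 8 were higher, from -0.27 for Acad9 to 0.34 for Tmem126b, of complexes II and III 7 of 10, from -0.48 for Lyrm7 to 0.34 for Uqcc2, and of complex IV 13 of 17, from -0.39 for Sco2 to 0.44 for Taco1. The 3 assembly factors of complex V were all lower, from -0.34 for Atpaf1 to -0.13 for Atpaf2.

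Of the genes of these lists, 11 of 111 were higher and 7 lower in all CKO than in all WT libraries, beside the 5.63% and 8.86% of tested genes given above. In replicates 2 and 3 only, 12 of the 111 passed the test as higher and 3 as lower in CKO, beside 7.05% and 8% of tested genes. Taco1, the translational activator of mt-Co1, was at 11.5, 10.5 and 10.4 FPKM in WT and 12.5, 16.7 and 15.2 FPKM in CKO (0.44 ± 0.14, adjusted p = 0.43, and 0.07 with the block). Trmt10c, a subunit of the mitochondrial RNase P that cuts the precursor RNA, was at 11.2, 10.2 and 10.5 FPKM in WT and 11.9, 18.3 and 15.1 FPKM in CKO (0.48 ± 0.16, adjusted p = 0.496, and 0.074 with the block). Coq2, an enzyme of coenzyme Q synthesis, was at 13.2, 13.5 and 13.2 FPKM in WT and 10.02, 9.93 and 10.6 FPKM in CKO (-0.38 ± 0.10, adjusted p = 0.358, and 0.068 with the block). Atpaf1, which helps assemble the F1 head, was at 4.77, 4.95 and 4.85 FPKM in WT and 3.87, 3.52 and 4.09 FPKM in CKO (-0.34 ± 0.12). For each of these 4 genes the exact permutation p was 0.1, the smallest possible.

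The remaining lists had medians between -0.03 and 0.14. Coenzyme Q synthesis had 6 of 13 genes higher and a median of -0.03, up to 0.20 for Coq5. Mitochondrial DNA replication and transcription had 9 of 15 higher and a median of 0.02, from -0.46 for Mterf1b to 0.25 for Tfb1m. Mitochondrial RNA stability and processing had 12 of 15 higher and a median of 0.14, down to -0.14 for Pnpt1. The transcriptional regulators had 7 of 10 higher and a median of 0.05, from -0.11 for Ppargc1a to 0.49 for Ppargc1b, both at low levels with means of 1.22 and 0.517 FPKM. The tricarboxylic acid cycle had 11 of 14 higher and a median of 0.08, from -0.0083 for Suclg2 to 0.29 for Sucla2. Beside these, the 77 mitochondrial ribosomal protein genes had a median of 0.14 with 65 higher, and the 77 cytosolic ribosomal protein genes a median of 0.26 with 75 higher, so a lean to the CKO side was also seen in genes outside the respiratory chain. Whether it differed between these groups was not tested.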

How the data were processed

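The deposited values were FPKM per protein-coding gene, made by the authors from a stranded mRNA library of total RNA, 1 column per library. The submitters' processing notes name cutadapt 2.5, HISAT2 2.1.0 and featureCounts 1.6.3 and the build mm10 for the series, without stating their roles. The annotation, the strand setting and the handling of multiply mapped reads are not given in the sources used here. For 94.1% to 94.7% of values the FPKM times exon length (GENCODE vM21) was a whole number of reads within 0.1, which gave the library sizes. Reads on listed genes came to 0.947 to 0.968 of that size in 4 libraries but to 1.11 in CKO2 and 1.03 in CKO3, so the sizes used by the authors appear to have been scaled between libraries.

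The 12305 genes whose FPKM averaged 0.5 or more were tested on log2(FPKM + 0.1) with limma 3.58.1 in R 4.3.3, with a trended prior and Benjamini-Hochberg adjustment over all of them, a gene being called at an adjusted p under 0.05. Log2 differences are on this scale, which understates those of low genes. Groups and replicate numbers came from the sample titles. Nothing says that equal numbers share a litter or day. Deviations from the genotype means correlated in each of the 3 numbered pairs (r = 0.64, 0.44 and 0.27). However, WT2 correlated more with CKO3 (0.49) than with CKO2 (0.44), and WT3 more with CKO2 (0.31) than with CKO3 (0.27). The numbers thus separate replicate 1 from the rest and not 2 from 3. The fit with the number as a block is given where it changes a call. The p-values rest on the spread between these libraries, with the variance of each gene drawn towards that of tested genes of like level. With replicates 2 and 3 only, this prior outweighs the spread of the gene itself. For mt-Atp8 the SE of that fit was 0.30. Its levels were 1.84 and 3.37 FPKM in WT2 and WT3 and 5.12 and 22.0 FPKM in CKO2 and CKO3. Calls in that fit are thus no measure of the spread of those libraries alone. The fits were also run on simulated data in which both genotypes had the same deviation for each replicate number. Such data cannot show whether the block suits these libraries, and the outcome is not given here. Alternatives were other pseudocounts, filters, scalings and priors, the block, replicates 2 and 3 only, each library left out, and voom on recovered reads. Nuclear copies were searched with blastn 2.17.0 in GRCm38, and 100-base windows were matched without mismatch.

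The members and lists were chosen with earlier results of these data known. Named genes were members called with or without the block, the mitochondrially encoded, core and isoform genes, the extremes of each complex and of level, and the extremes of each list. Ndufa12, Ndufa13, Ndufb8, Ndufaf1, Ndufaf8, Hnrnpk, Nrf1, Gabpa and the members called in replicates 2 and 3 were named after their values were seen. One member is not reported here.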

Additional observations from a re-analysis of the deposited data

How the results depend on the processing

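Calls depended most on the replicate number. All tested genes gave 8 calls in all 6 libraries, 346 with the replicate block, 1851 with replicates 2 and 3 only and 5 when scaled to nuclear genes other than globin genes, and 1 to 23 with a library left out (7 without WT1, 3 without WT2, 1 without WT3, 23 without CKO1, 1 without CKO2 and 1 without CKO3). Members called went from 0 to 2 with the block and to 15 with replicates 2 and 3 only, and were 0 in each of the other 13 alternatives. With a library left out, the median log2 difference ranged from -0.02 to 0.42 for nuclear subunit genes and from 0.02 to 0.54 for mitochondrially encoded genes. The block changed no other call among the 70 named genes. Of these, 34 changed sign without 1 library, each with the range of its log2 difference: Atp5c1 (-0.02 to 0.44), Atp5e (-0.09 to 0.57), Atp5g2 (-0.05 to 0.29), Atp5g3 (-0.09 to 0.27), Atp5s (-0.43 to 0.07), Cox4i1 (-0.05 to 0.19), Cox4i2 (-0.14 to 0.46), Cox6a1 (-0.0062 to 0.26), Cox6b1 (-0.02 to 0.58), Cox7a1 (-0.44 to 0.28), Cox7a2l (-0.05 to 0.41), Etfb (-0.60 to 0.33), Ndufa4 (-0.10 to 0.51), Ndufs1 (-0.02 to 0.22), Ndufs3 (-0.09 to 0.18), Ndufs7 (-0.13 to 0.11), Ndufs8 (-0.09 to 0.57), Ndufv1 (-0.17 to 0.07), Ndufv2 (-0.08 to 0.43), Ppargc1a (-0.20 to 0.03), Sdhb (-0.16 to 0.45), Sdhd (-0.03 to 0.52), Suclg2 (-0.05 to 0.07), Uqcrc1 (-0.04 to 0.12), Uqcrc2 (-0.02 to 0.54), Uqcrfs1 (-0.05 to 0.24), mt-Atp6 (-0.16 to 0.82), mt-Atp8 (-0.10 to 2.01), mt-Co1 (-0.08 to 0.54), mt-Co3 (-0.26 to 0.61), mt-Cytb (-0.15 to 0.37), mt-Nd3 (-0.12 to 0.70), mt-Nd4 (-0.14 to 0.40) and mt-Nd6 (-0.05 to 0.27). Scaled to nuclear genes other than globin genes, the log2 differences that turned were Atp5d -0.01, Atp5g1 -0.02, Atp5g2 -0.01, Atp5g3 -0.02, Cox4i1 -0.04, Ndufs3 -0.06, Sdha -0.0075, Sdhb -0.005, Uqcrc1 -0.05, Uqcrfs1 -0.04, mt-Cytb -0.0094, mt-Nd4 -0.01 and mt-Nd6 -0.0061. With voom on recovered reads, whose median over all genes was -0.10, they were Atp5a1 -0.0074, Atp5d -0.02, Atp5g1 -0.03, Atp5g2 -0.03, Atp5g3 -0.03, Cox4i1 -0.05, Cox6a1 -0.01, Ndufs3 -0.07, Sdha -0.02, Sdhb -0.02, Uqcrc1 -0.07, Uqcrfs1 -0.05, mt-Cytb -0.02, mt-Nd4 -0.03 and mt-Nd6 -0.02. With replicates 2 and 3 only they were Ndufs7 0.0044, Ndufv1 0.0063 and Suclg2 0.12, and with median-ratio scaling Suclg2 0.0028. The scaling to nuclear genes other than globin genes and voom moved the median of all genes from 0.0048 to -0.09 and -0.10. The genes listed for those settings shifted by about as much as that median. The cause of the other changes was not tested. The pseudocount of 1, the filters and the prior without a trend turned none of the named genes. Members under 40 reads per library, such as mt-Nd4l and Cox7a1, are limited by counting error.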
